A study of Mus musculus with 3 samples.

Results

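The 10 genes described here encode parts of the 2 ion channels that set the calcium and potassium currents of mouse sperm, and were taken by symbol from the gene rows of the count tables, 10 of 32285 genes. They are the pore subunits Catsper1, Catsper2, Catsper3 and Catsper4, the auxiliary subunits Catsperb, Catsperd and Catsperg1, the paired regulators Catsperz and Efcab9, and Kcnu1, which encodes the potassium channel Slo3. The study counted messenger RNA in single cells of adult mouse testis (10x Genomics 3′ libraries), in which reads from the 3′ end of a transcript are counted once per molecule by a unique molecular identifier (UMI). It compared wildtype mice, as 2 libraries of 1 mouse each, with mice carrying a conditional knockout of Tex10, as 1 library of cells pooled from 2 mice; all libraries carry the strain label C57BL/6N. Which Cre line was used and which exons of Tex10 it removes are not given in the labels, and age is given only as adult. Where 3 values stand together below, they are in the order wildtype 1, wildtype 2, knockout. The question addressed is whether the subunits of the calcium channel and the potassium channel rise together along sperm development or in steps.

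CatSper is the calcium channel of the sperm tail. Its 4 pore proteins come from different genes, and each is needed for a working channel, for the vigorous tail beat called hyperactivation and for male fertility. Slo3 carries the potassium current that makes the sperm membrane more negative during capacitation. Ripe sperm make almost no RNA, so the messages for both channels are made earlier, as spermatogonia become spermatocytes (the cells in meiosis), round spermatids and then elongating spermatids.

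The regions around the annotated starts are shown for 3 members. Catsperd has 2 maxima and 2 annotated starts, Catsperb rose in early spermatocytes, and Efcab9 came up later. Catsperg1 also has 2 annotated starts and is not shown. Whether any start goes with a rise or a maximum was not tested. Each window runs from 250 bases before to 50 after a RefSeq start on GRCm38.p6, read 5′ to 3′ on the gene's strand, and 8 of the 10 members (all but Catsper1 and Kcnu1) matched, with 10 windows. Capitals mark matches on either strand to TGACG (the half-site bound by CREB and CREM), TAACNG (the core bound by MYB proteins) or GTTGCC (the half-site bound by RFX proteins). The windows lie at chr17:56626797-56627096 and chr17:56627893-56628192 (plus strand) for Catsperd, at chr12:101404423-101404722 (plus strand) for Catsperb and at chr11:32527525-32527824 (minus strand) for Efcab9. The Efcab9 window lies inside the gene as GENCODE places it (chr11:32522751-32532081), and not at the start of that span. The upstream Catsperd window lies wholly before the GENCODE span of that gene (chr17:56628143-56664456), and the downstream window holds the start of the span. The upstream start of Catsperd is thus given by RefSeq and lies outside the GENCODE gene.
Catsperd, upstream start: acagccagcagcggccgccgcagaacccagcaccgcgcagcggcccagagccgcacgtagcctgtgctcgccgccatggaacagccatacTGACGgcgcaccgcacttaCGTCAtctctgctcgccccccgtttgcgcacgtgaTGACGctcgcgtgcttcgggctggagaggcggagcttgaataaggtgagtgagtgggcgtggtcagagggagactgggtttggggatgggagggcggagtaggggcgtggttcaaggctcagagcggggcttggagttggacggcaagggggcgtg
Catsperd, downstream start: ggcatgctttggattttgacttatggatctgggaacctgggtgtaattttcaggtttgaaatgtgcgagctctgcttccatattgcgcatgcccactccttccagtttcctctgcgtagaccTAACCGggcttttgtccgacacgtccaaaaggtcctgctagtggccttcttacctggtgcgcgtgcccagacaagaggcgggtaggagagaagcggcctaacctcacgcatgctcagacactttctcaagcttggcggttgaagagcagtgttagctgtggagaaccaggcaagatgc
Catsperb: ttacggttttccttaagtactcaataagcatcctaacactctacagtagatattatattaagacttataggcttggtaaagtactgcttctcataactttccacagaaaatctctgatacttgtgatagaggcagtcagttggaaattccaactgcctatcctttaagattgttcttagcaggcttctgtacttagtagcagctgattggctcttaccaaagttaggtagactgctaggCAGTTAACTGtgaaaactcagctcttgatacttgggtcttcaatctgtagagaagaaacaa
Efcab9: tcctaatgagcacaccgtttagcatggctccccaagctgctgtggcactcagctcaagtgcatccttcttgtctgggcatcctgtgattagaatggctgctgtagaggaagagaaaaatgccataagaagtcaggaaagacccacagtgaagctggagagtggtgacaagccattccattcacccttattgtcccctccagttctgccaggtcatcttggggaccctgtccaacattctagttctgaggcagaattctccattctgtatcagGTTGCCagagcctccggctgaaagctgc
TGACG occurred 3 times in the upstream Catsperd window, and at least once in 2 of the members' 10 windows and in 20.8% of all 32851 windows. TAACNG occurred in 3 of the 10 windows against 23.3% of all windows. Its 2 matches in the Catsperb window overlap, 1 on each strand. GTTGCC occurred in 1 of the 10 windows, that of Efcab9, against 12.5% of all windows. These are matches of letters and not measured sites.

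The libraries held 9967 and 10153 barcodes (wildtype) and 12918 (knockout), with 93418341, 96001773 and 147783171 UMIs, and pairs of libraries shared 27 to 30 barcode sequences. Of the barcodes kept, 54.9%, 40.2% and 63.6% fell in clusters with a median UMI total under 3 times the lowest deposited total, and these were left out of the classes. The 5 germ cell classes then held 3194, 4403 and 3618 cells, with at least 224 cells per class and library and a median depth of 15680, 11862 and 20647 UMIs per cell. Each class was named from its markers. The rise of Stra8 (entry into meiosis) fell at position 3.97 to 4.12 and of Sycp1 (the synaptonemal complex) at 8.79 to 9.41. Piwil1 (pachytene) rose at 18.8 to 19.0, Acrv1 (the acrosome) at 38.0 to 39.3 and Prm1 (protamine) at 55.5 to 55.8. These genes are in the marker lists, so their order is no independent check of the names. Levels are in CPM, a gene's UMIs scaled to the same total of UMIs in every class and library. Piwil1, listed for late spermatocytes, stood higher in early spermatocytes (918.8, 858.0 and 676.5 CPM) than in late ones (322.8, 275.4 and 272.1 CPM). The early class thus reaches past the rise of Piwil1. Tex10 stood at 142.7, 124.0 and 131.4 CPM in spermatogonia and at 55.7, 52.7 and 46.1 CPM in late spermatocytes; a 3′ count need not see a deleted inner exon, so these values do not check the genotype.

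The 10 members did not rise together. Split at the largest gap between their mean wildtype positions, 7.57, they fell in 2 groups of 5, the same in all 3 libraries. Catsperg1, Catsperb, Catsperd, Catsperz and Catsper2 rose in early spermatocytes or at the start of the late spermatocytes. Kcnu1, Catsper1, Efcab9, Catsper3 and Catsper4 rose later. The late spermatocytes have their median at position 35.5 and their 90% point at 42.7, so Kcnu1 rose near the middle of that class and the other 4 after it. Germ cells were ordered by pseudotime, which places each cell by its distance in expression from the spermatogonia, without any of the members or their related genes. Position is the percent of germ cells passed, and a gene's rise is where it first reached 50% of its highest of 20 bins. The earlier group rose at positions 15.8 to 28.1 and the later group at 35.1 to 41.3. The gap between the groups was at least 7.30 in each library, against a bin width of 5.0. The positions themselves depend on which cells are ordered: with no barcode left out as a doublet, Catsper2 rose at 10.9 in place of 27.8, Catsperz at 9.96 in place of 25.3 and Kcnu1 at 21.2 in place of 35.3 (means of the libraries), while the gap between the groups was at least 8.80. All 25 pairs made of 1 gene from each group had the same order in the 3 libraries. For the wildtype libraries this follows in large part from the cut, which was drawn on their positions. The earlier group itself spanned 15.8 to 28.1, more than the gap. Within the earlier group 9 of 10 pairs did, and within the later group 10 of 10 did, although the later group spanned little more than 1 bin. Cells are not replicates and 3 libraries cannot give an exact two-sided p under 0.25, so the order is described and not tested.

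**Figure D1:**
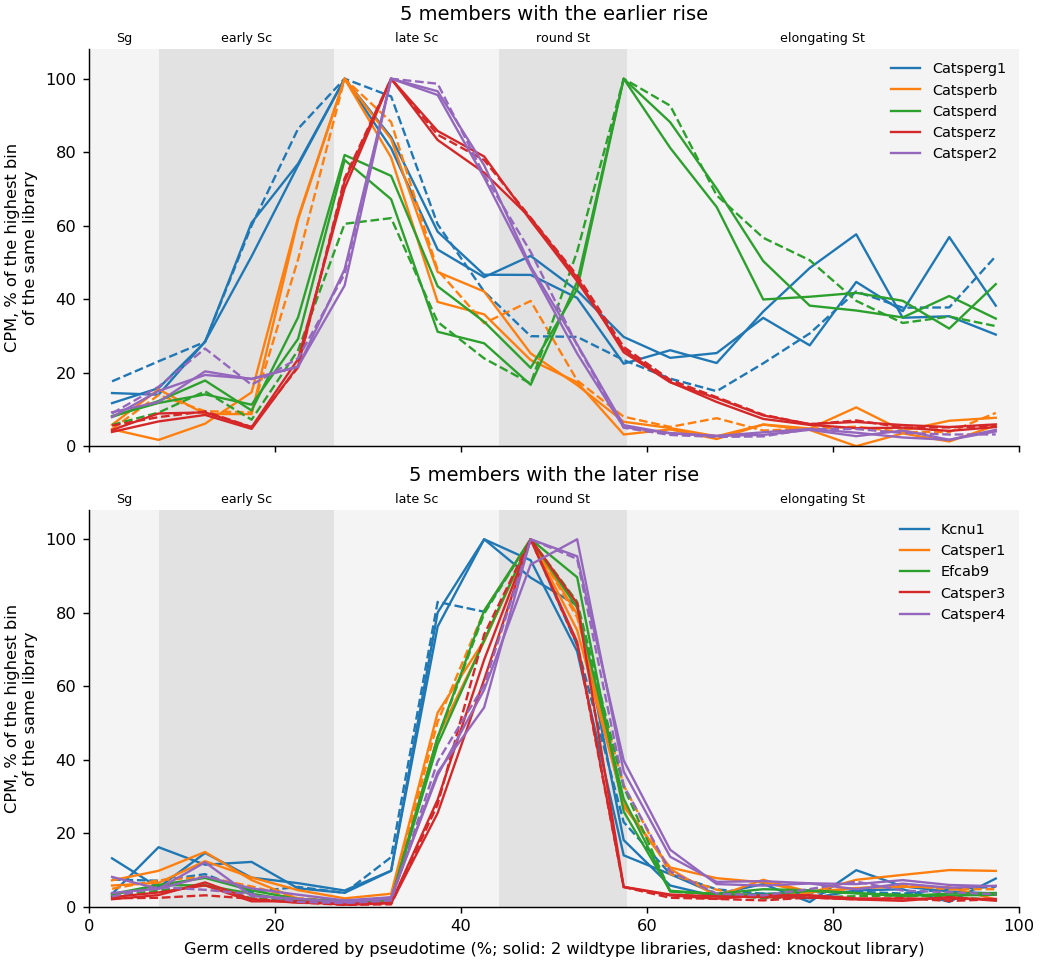
Level of each member in CPM in 20 bins of germ cells ordered by pseudotime (x axis, percent of germ cells), as a percent of the highest bin of the same library (y axis). Solid lines are the 2 wildtype libraries, dashed lines the knockout library, and grey bands mark the approximate span of each class (Sg, spermatogonia; Sc, spermatocytes; St, spermatids); the upper panel holds the 5 earlier members, of which Catsperd has a second maximum at position 57.5, and the lower panel the 5 later members.

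Among the pore subunits, Catsper2 came on well before the other 3. Catsper2 (chr2:121392631-121413792, minus strand) rose at positions 27.7, 28.1 and 27.8. Its level was 27.5, 29.9 and 26.2 CPM in spermatogonia, 65.2, 70.1 and 66.3 CPM in early spermatocytes, and 239.9, 258.9 and 231.2 CPM in late spermatocytes. In round spermatids Catsper2 stood at 102.6 and 125.8 CPM in the wildtype libraries, with the knockout library at 87.6% of their mean. In elongating spermatids it stood at 9.998, 11.3 and 9.72 CPM. The 3 libraries lay close together in each class, and no class overlapped a neighbouring one. Its level in peritubular myoid cells, smooth muscle cells of the tubule wall that should lack the channel, was 22.9, 34.3 and 32.3 CPM, a range that holds the spermatogonial values and is read as the level of free RNA. Catsper2 overlaps Pdia3 on the opposite strand, and whether counting used the strand is not stated, so its counts may include some of Pdia3.

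Catsper1 (chr19:5335741-5344280, plus strand) rose at positions 38.2, 37.2 and 37.5. Its level was 4.42, 4.31 and 3.52 CPM in early spermatocytes, 17.5, 21.6 and 16.3 CPM in late spermatocytes and 80.6, 73.0 and 71.2 CPM in round spermatids. It was back at 6.93, 7.66 and 5.98 CPM in elongating spermatids, below the 11.3 to 19.3 CPM of myoid cells. Round spermatids of all 3 libraries were therefore the highest class for Catsper1, and spermatogonia and early spermatocytes did not exceed the myoid level.

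Catsper3 (chr13:55784568-55808998, plus strand) and Catsper4 (chr4:134211970-134227383, minus strand) came last, at positions 40.9, 40.2 and 39.9 for Catsper3 and 41.3, 40.6 and 40.0 for Catsper4. Catsper3 stood at 34.0, 52.5 and 42.5 CPM in late spermatocytes and 201.3, 240.0 and 203.8 CPM in round spermatids, and Catsper4 at 42.6, 60.7 and 40.8 CPM and then 274.3, 278.9 and 243.8 CPM. In both genes each library was higher in round spermatids than any library in late spermatocytes. The order of Catsper3 before Catsper4 rests on differences far below 1 bin, and it turned with 10 bins, with a rise set at 25% of the highest bin, or with the low-UMI clusters kept in.

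The auxiliary subunits, membrane proteins with large outer parts that form the canopy over the pore, all belonged to the earlier group. Catsperg1 (chr7:29181321-29214035, minus strand) rose before the other 9 members, at positions 15.8, 17.1 and 15.9. Its level was 6.40, 8.07 and 5.62 CPM in spermatogonia, 29.98, 31.5 and 24.9 CPM in early spermatocytes and 35.3, 35.9 and 29.7 CPM in late spermatocytes. Spermatogonia and early spermatocytes did not overlap, whereas the values of early and late spermatocytes did. Of the 31-base words in the last 500 bases of its transcripts, 51.7% also occur in another gene, mainly its copy Catsperg2, so reads may be split between the copies and its level is uncertain.

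Catsperb (chr12:101404653-101626009, plus strand) rose at positions 21.2, 21.4 and 22.4. Catsperb went from 1.88, 4.71 and 2.68 CPM in spermatogonia to 25.6, 27.7 and 20.3 CPM in early spermatocytes, and stood at 39.4, 35.5 and 38.7 CPM in late and 9.72, 10.6 and 12.2 CPM in round spermatids. The spermatogonial values rest on 5, 14 and 10 UMIs and lie in the range of myoid cells, 1.76 to 8.58 CPM. Catsperd (chr17:56628143-56664456, plus strand) rose at 24.6, 24.2 and 25.97 and Catsperz at 25.3 in each library, the only pair of members whose order differed between libraries. Spermatogonia had Catsperd at 7.76 to 11.3 CPM, within the 5.29 to 12.9 CPM of myoid cells, and early spermatocytes had it at 34.0, 41.7 and 31.01 CPM.

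The regulators CATSPERZ and EFCAB9, which bind each other as proteins and link the channel to pH and calcium, were in different groups. Catsperz (chr19:6922371-6925380, minus strand) went from 87.0, 108.5 and 126.6 CPM in spermatogonia to 438.5, 503.9 and 484.1 CPM in early and 1821, 1748 and 1939 CPM in late spermatocytes. Efcab9 (chr11:32522751-32532081, minus strand) stood at 16.5, 18.2 and 14.7 CPM in early spermatocytes, 115.3, 161.0 and 117.1 CPM in late spermatocytes and 571, 582.5 and 539.2 CPM in round spermatids, with a rise at 38.5, 38.1 and 38.1. Catsperz thus came before Efcab9 by 13.2, 12.7 and 12.8 percent of germ cells, more than 2 bins in each library. In myoid cells Catsperz read 166.4 to 195.1 CPM and Efcab9 26.5 to 53.6 CPM, above the spermatogonial level of each gene in every library. Catsperz lies on the same strand as the overlapping gene Kcnk4, with which 15.1% of its 3′ words are shared.

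Kcnu1 (chr8:25849623-25937939, plus strand) was the earliest of the later group, at positions 35.5, 35.4 and 35.1. Its level was 3.93, 3.29 and 2.62 CPM in early spermatocytes, 14.95, 19.8 and 15.1 CPM in late spermatocytes and 39.6, 40.1 and 40.0 CPM in round spermatids, and it fell to 2.56, 2.91 and 3.07 CPM in elongating spermatids. The ratio of round spermatids to late spermatocytes was 2.55, 1.98 and 2.54, so the second wildtype library alone kept it just short of a 2-fold rise in every library. By bins it stood at 49.7, 49.5 and 41.9 CPM at position 42.5, where most cells were late spermatocytes. At position 47.5, where most were round spermatids, it stood at 44.5, 46.6 and 52.2 CPM. Poisson intervals of counting error for these bins overlapped within each library. Which of these bins was highest is therefore not resolved, and no difference in stage between wildtype and knockout is read from them. Lrrc52, the auxiliary subunit of Slo3, rose at 43.7, 43.4 and 42.9, after Kcnu1 in each library.

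**Figure D2:**
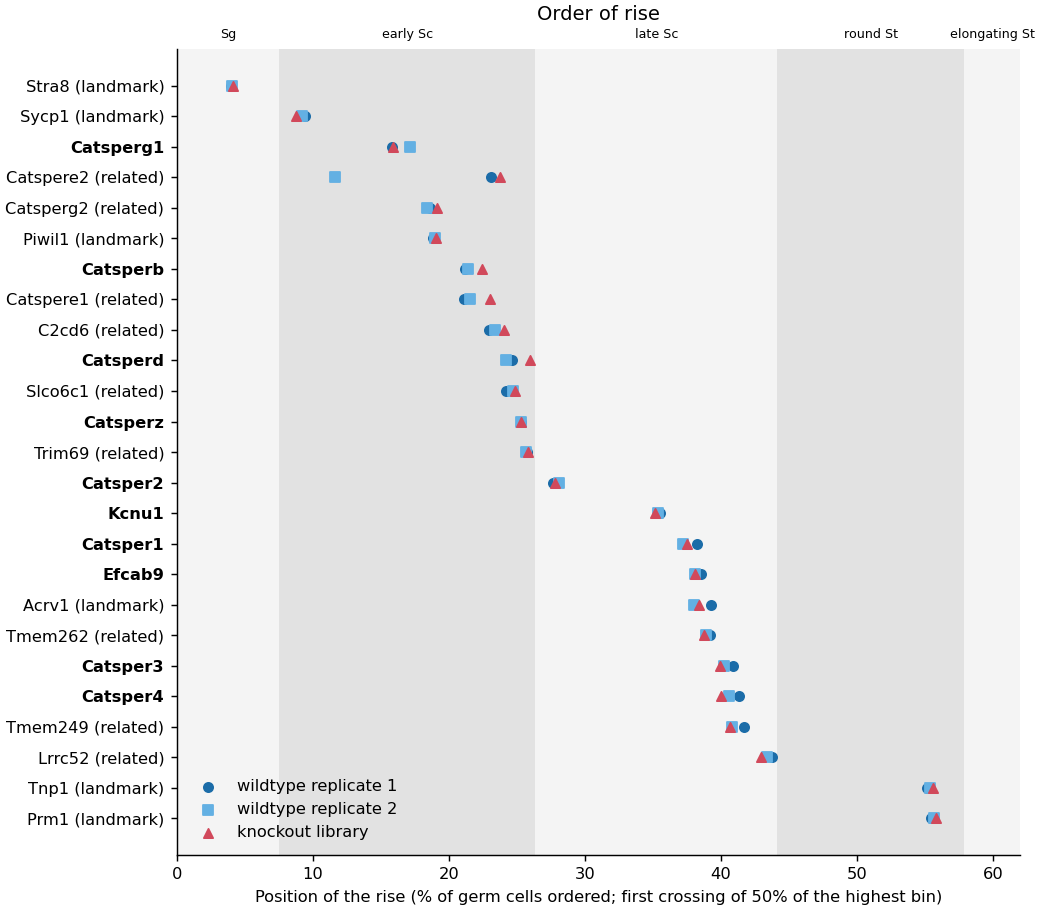
Position of the rise (x axis, percent of germ cells ordered by pseudotime) of the members in bold, of other CatSper complex genes and Lrrc52 (related), and of stage landmarks, with 1 symbol per library. Split at their largest gap, the members form 2 groups, 15.8 to 28.1 and 35.1 to 41.3. Catspere2 is the gene whose libraries differ most, 11.6 to 23.7.

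The late spermatocyte class was made of 2 clusters, and the later members came up between them. In the earlier cluster, at median position 30.4, Catsper1 stood at 1.27 to 2.15 CPM, Catsper3 at 1.303 to 2.73, Catsper4 at 2.35 to 4.94, Efcab9 at 6.07 to 8.91 and Kcnu1 at 2.86 to 4.13 CPM over the 3 libraries. In the later cluster, at position 39.5, Catsper1 stood at 48.4 to 53.8 CPM, Catsper3 at 105.4 to 145.2, Catsper4 at 126.8 to 137.4, Efcab9 at 356.1 to 393.6 and Kcnu1 at 41.8 to 43.2 CPM. The clusters were made without these genes. They also differed in median depth, 72489 UMIs in the earlier and 25530 UMIs in the later one. How many of all genes differed as much between them was not counted. The later cluster also carried Acrv1, a marker of round spermatids, at 334.5 to 380.1 CPM against 3.98 to 7.91 CPM in the earlier one. Round spermatids had Acrv1 at 539.0, 603.9 and 510.1 CPM, so the name of the later cluster as late spermatocytes is uncertain. The later cluster held 51.9%, 64.4% and 49.8% of the late spermatocytes. Late spermatocytes of wildtype replicate 2 had the highest level of all 5 later members. The part of this mixture in that difference was not tested.

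**Figure D3:**
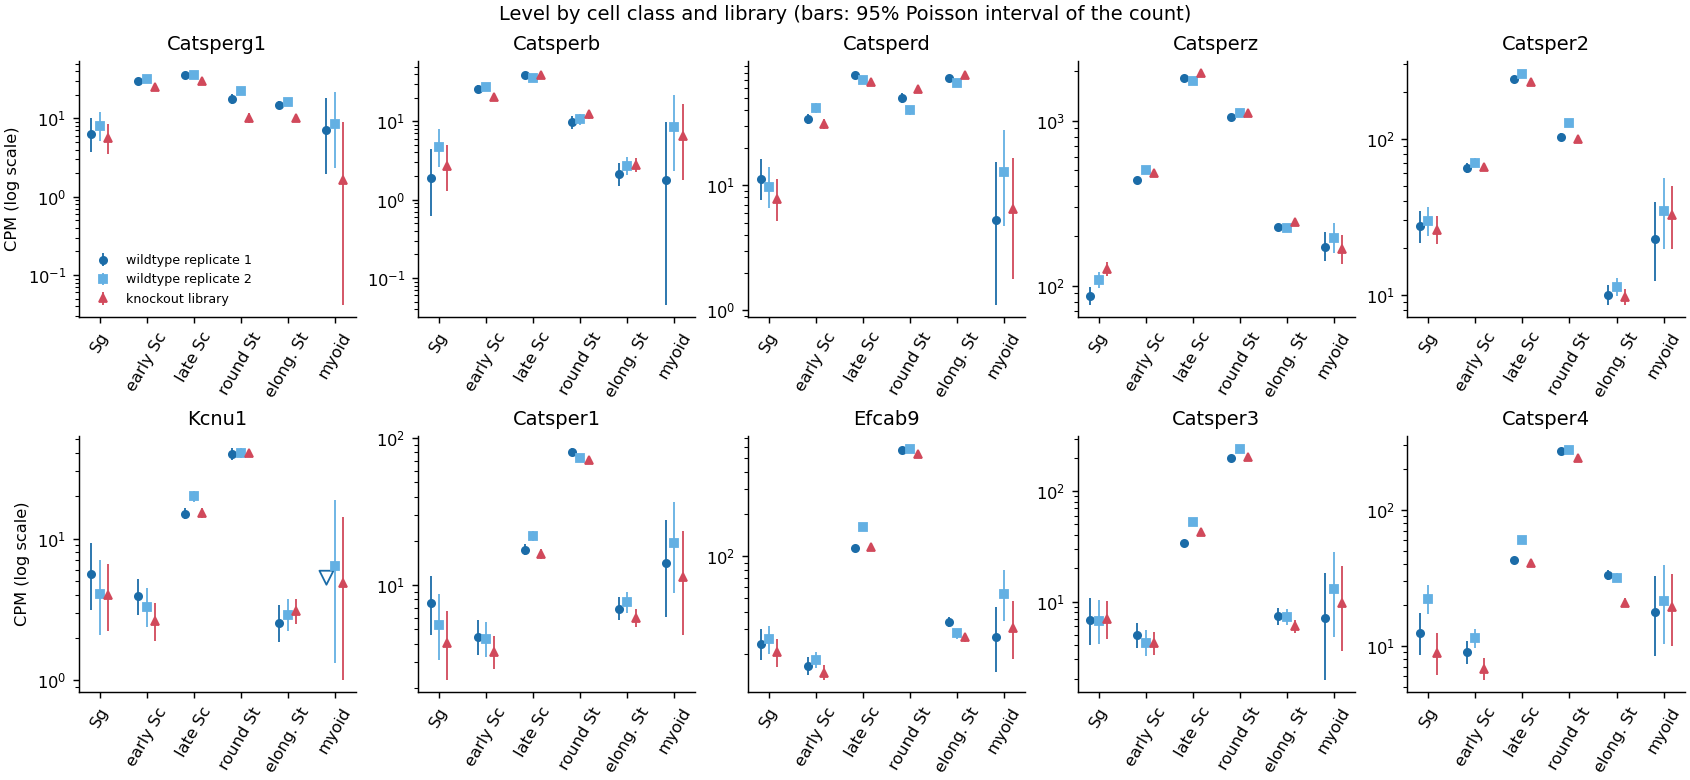
Level of each member in CPM (y axis, log scale, scaled per panel) in spermatogonia (Sg), early and late spermatocytes (Sc), round and elongating spermatids (St) and peritubular myoid cells, with 1 symbol per library and exact 95% Poisson intervals, which cover counting error only. The open triangle for Kcnu1 marks a count of 0, drawn at the limit that 3 counts would give; the upper row holds the earlier and the lower row the later members.

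Counted by class, 5 of 10 members passed a 2-fold rise in every library from spermatogonia to early spermatocytes (Catsper2, Catsperb, Catsperd, Catsperg1 and Catsperz), where 19.9% of the 7689 genes tested did and 22.3% fell by as much; 6 members reached the minimum of 20 CPM, and none fell. This count rests on the last of 3 early spermatocyte clusters, at median position 22.8, where Catsperb stood at 27.7 to 35.7 CPM and Catsperz at 551.3 to 630.8 CPM, against 2.81 to 3.94 and 116.3 to 143.8 CPM in the cluster before it. When clusters were redrawn with the members kept in, 663 of its 810 cells fell in no named class, and with no barcode left out as a doublet 653 were joined to the late spermatocytes; 0 members then passed this step, and log2 ratios of Catsperz were 0.24 to 0.52 and -0.07 to 0.54. From early to late spermatocytes 5 rose (Catsper2, Catsper3, Catsper4, Catsperz and Efcab9), against 18.5% of genes, and none fell, against 28.5%. From late spermatocytes to round spermatids 4 rose (Catsper1, Catsper3, Catsper4 and Efcab9), against 27.7% of genes, and 2 fell (Catsper2 and Catsperb), against 35.8%. From round to elongating spermatids none rose, against 6.47%, and 7 fell, against 58.2%. Of the members, 8, 10 and 8 reached the minimum level at the steps to late spermatocytes, round spermatids and elongating spermatids. The share rising was above that of all genes at the first 2 steps, although the first count went to 0 when clusters were redrawn. At the step to round spermatids, 4 of 10 lies near the share of all genes. Falls in elongating spermatids were common to most genes. The median log2 ratio of all genes tested was -0.15, -0.30, -0.60 and -1.52 at the steps in this order, so CPM of one step and another do not share a fixed zero.

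Scaling by the trimmed mean of M values (TMM) moved those medians by 0.51, 0.38, 0.28 and 1.27 on the log2 scale. UMIs per cell in place of CPM moved them by 0.64, 1.28, -0.47 and -1.22. Under TMM the fall of Catsper2 in round spermatids (log2 ratio -0.97 to -0.82) and of Catsperz in elongating spermatids (-0.98 to -0.87) no longer passed, Kcnu1 passed the rise to round spermatids (1.19 to 1.72), and the ratio of Catsperg1 from round to elongating spermatids turned from between -0.42 and -0.02 to between 0.95 and 1.13. The first-step count went to 3 because Catsperb and Catsperg1 missed the minimum level, with ratios of 2.63 to 3.30 and 2.22 to 2.41.

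Catsperd, an auxiliary subunit needed for the channel to be stable, was the member with 2 separate maxima. It reached 97.6, 90.3 and 79.5 CPM at its earlier maximum in spermatocytes, dropped to 20.9, 24.3 and 21.8 CPM in the bin of the first round spermatids, and reached 125.3, 114.0 and 128.1 CPM as elongation began. The later maximum was 5.99, 4.70 and 5.87 times the minimum and the earlier one 4.66, 3.72 and 3.64 times, so both exceeded the spread of the libraries. The same shape held by cluster: the earlier cluster of late spermatocytes stood at 93.0, 88.7 and 80.8 CPM, the first round spermatid cluster at 21.1, 25.01 and 23.5 CPM and the next at 82.7, 70.5 and 94.6 CPM. The minimum fell where Catsper1, Catsper3 and Efcab9 were at their highest bin, position 47.5. Under TMM the step to elongating spermatids passed as a 2-fold rise, and with UMIs per cell the ratio was -0.87 to -0.47, so the direction of that class step depends on the scaling. The dip runs across these classes: its lowest bin held round spermatids, the earlier maximum lay in spermatocytes, and the bin of the later maximum held 413 elongating and 132 round spermatids.

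Catsperg1 was also present late. It stood at 34.8, 36.6 and 23.0 CPM in 1 cluster of elongating spermatids, led by Spem2 and Tssk6, 3.27, 3.04 and 3.43 times its level in the cluster before it and 2.53, 2.54 and 2.17 times that in the third cluster of elongating spermatids, which lies at nearly the same position. Its copy Catsperg2 was at 0.850, 3.69 and 1.35 CPM in that cluster, whereas in spermatocytes the highest bin of Catsperg2 held 57.3, 52.3 and 48.2 CPM.

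**Figure D4:**
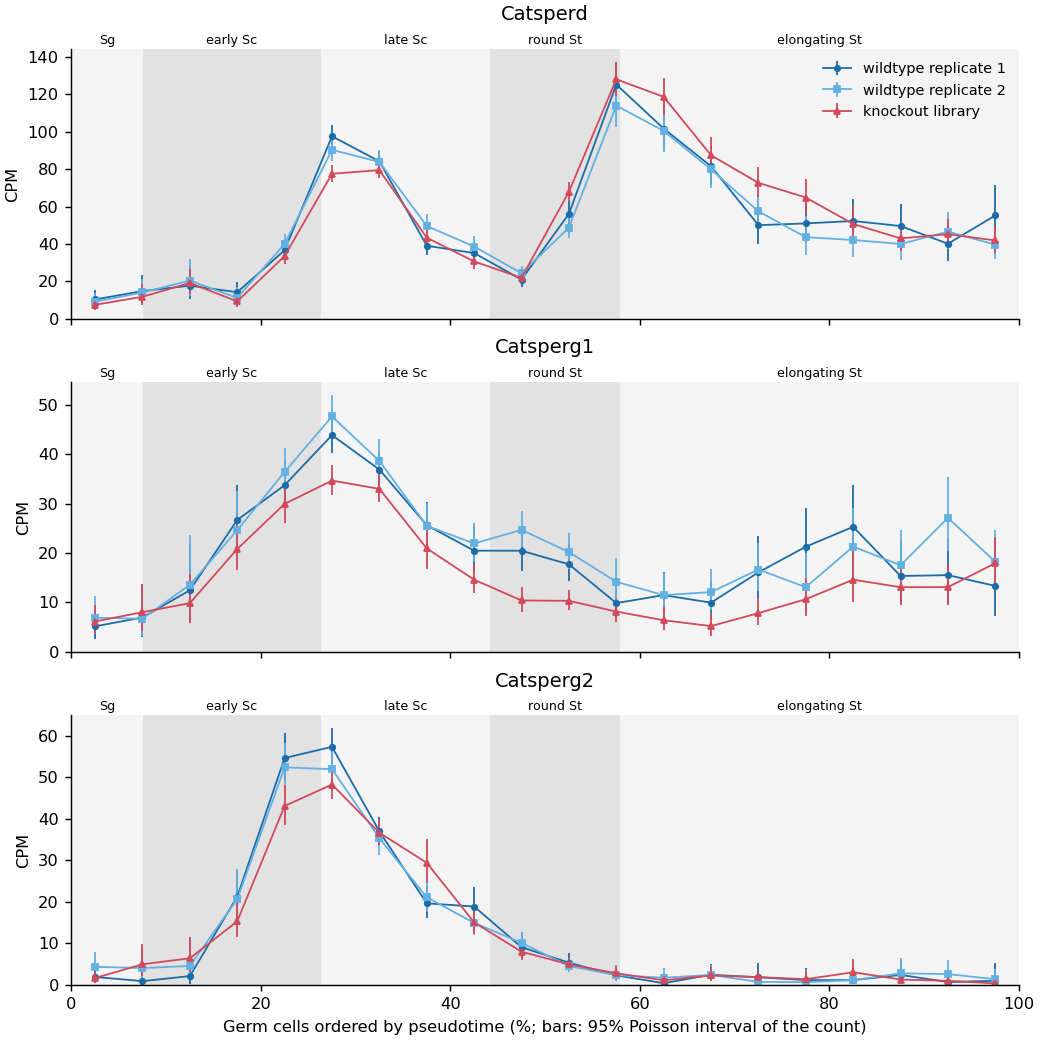
Level of Catsperd, Catsperg1 and Catsperg2 in CPM (y axis) in 20 bins of germ cells ordered by pseudotime (x axis, percent of germ cells), 1 line per library, with exact 95% Poisson intervals. Catsperd dips to 20.9 to 24.3 CPM at position 47.5 between its 2 maxima, and Catsperg2 lacks the late signal of Catsperg1.

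Within the later group the profiles over the 20 bins had Pearson correlations of 0.82 to 0.99 (median 0.94) in the single libraries. Within the earlier group they ran from -0.25 to 0.88 (median 0.51), lowest for Catsper2 with Catsperd, and between groups from -0.28 to 0.73 (median 0.15). The groups were cut on rise positions read from these same profiles. Higher correlation within a group than between groups therefore follows in part from the cut. Bins also share cells' depth and composition, so these are descriptions.

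Of the 10640 genes that reached 20 CPM in 1 bin of every library, those with the profile most like each member, over 60 points (20 bins in 3 libraries, log2 scale), were as follows. Spaca3 (r = 0.97) was nearest to Catsper1, Lyzl6 (0.98) to Catsper3, 4933416O17Rik (0.98) to Catsper4, Tsga8 (0.99) to Efcab9 and Ctdp1 (0.94) to Kcnu1. In the earlier group Vdac2 (0.98) was nearest to Catsper2, Smco2 (0.99) to Catsperz, Abcc12 (0.96) to Catsperb, Ttc23 (0.91) to Catsperd and Pink1 (0.88) to Catsperg1. The second nearest were Efcab9 itself for Catsper1 (0.97), Spata45 for Catsper3 (0.98), 1700067P10Rik for Catsper4 (0.98), Tmem190 for Efcab9 (0.99) and Gm48051 for Kcnu1 (0.94), and Dnal4 for Catsper2 (0.98), Adam32 for Catsperz (0.99), Spata16 for Catsperb (0.95), Gsto2 for Catsperd (0.89) and Gm5922 for Catsperg1 (0.85). Catsperd and Catsperg1, the members with a late second signal, had the least similar neighbours.

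Other genes of the CatSper complex also lay on either side of the gap between the 2 groups. Of 9 listed symbols, 8 were in the files (C2cd6b was not matched). Catsperg2 (18.4 to 19.1), Catspere1 (21.1 to 23.0), C2cd6 (23.0 to 24.1), Slco6c1 (24.2 to 24.8) and Trim69 (25.6 to 25.8) rose before it, and Tmem262 (38.8 to 39.2) and Tmem249 (40.7 to 41.7) after it. Catspere2 rose at 23.1, 11.6 and 23.7, so its place before the gap was shared by the libraries but its position was not. Catspere1 is annotated as a pseudogene and shares 57.2% of its 3′ words with Catspere2, so the 2 cannot be told apart with certainty. Of these 8 genes, 5 passed the rise to early spermatocytes (19.9% of all genes tested did) and 4 the rise to late spermatocytes (18.5%). The rise to round spermatids was passed by 2 (27.7%), where 3 fell (35.8%), and 5 fell in elongating spermatids (58.2%). At these steps 5, 7, 7 and 5 of the 8 reached the minimum level. The early spermatocyte class behind the first count lost most of its last cluster when clusters were redrawn.

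A list of 13 further genes of sperm ion transport and capacitation had rises both outside and within these ranges. Atp2b4, a calcium pump, rose at 17.8 to 19.1, Slc9b1 and Slc9c1, sodium and proton exchangers, at 21.3 to 21.9 and 22.9 to 23.7, and the anion transporter Slc26a8 at 23.1 to 23.7. These 4 passed the rise to early spermatocytes, as 19.9% of all genes tested did, with the same limit of that class. Adcy10, the soluble adenylyl cyclase, passed the next step and rose at 35.3 to 36.2, close to Kcnu1. Lrrc52, Abhd2 (46.7 to 47.6) and Atp1a4, the sperm sodium pump (47.9 to 48.7), passed the rise to round spermatids. On this list 4 genes fell there (35.8% of all genes tested did) and 3 in elongating spermatids (58.2%). The rises to late and to round spermatids were passed by 18.5% and 27.7% of all genes tested. At the steps in order, 4, 5, 8 and 5 genes of the list reached the minimum level. Atp1a4 kept 70.7%, 62.3% and 62.5% of its highest bin in the last bin, whereas Catsper3 kept 1.62% to 2.13%. Hvcn1, Slc9b2, Slc26a3 and Slc26a6 stayed under 5 CPM in every bin, and no position is read from them; the highest bin of Cftr, the anion channel of cystic fibrosis, held 9.15 to 11.9 CPM.

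Between knockout and wildtype libraries none of the 10 members passed the size rule in any class. The rule asked for a 2-fold difference from each wildtype library in the same direction, with the smaller log2 ratio at least 2 times that between the wildtype libraries and 20 CPM in 1 library. All genes passed it at 0.351% in spermatogonia, 0.332% in early and 0.843% in late spermatocytes, 1.2% in round and 1.33% in elongating spermatids and 2.33% in myoid cells, so 0 of 10 lies near the background. Genes higher in the knockout library were 0.257%, 0.136%, 0.371%, 0.517%, 0.745% and 0.807% of those tested in these classes, and genes lower were 0.0946%, 0.196%, 0.472%, 0.683%, 0.583% and 1.53%. Of the members, 4, 5, 9, 9, 4 and 4 reached the minimum level. With 1 knockout library there is no test. Of the 31 values of members that reached the minimum level in the 5 germ cell classes, the knockout library lay below both wildtype libraries in 18 and above both in 6, where 34.0% and 38.3% of the values of all genes did. Intervals of counting error lay apart in 6 values below and 3 above, where 8.95% and 11.2% of all values did. These values share libraries and classes and are not independent. Rise positions in the knockout library differed from the wildtype mean by at most 1.56 (Catsperd, wildtype SD 0.31, n = 2), followed by 1.09 for Catsperb (SD 0.13), both under a bin width.

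Catsperg1 and Catsper4 came nearest to the rule. Catsperg1 stood at 17.8 and 22.3 CPM in wildtype round spermatids (95% Poisson intervals 15.4 to 20.5 and 19.9 to 24.8) and at 10.2 CPM (8.81 to 11.6) in those of the knockout library, log2 ratios of -0.75 and -1.06. In elongating spermatids it was 14.9 and 16.4 against 10.0 CPM, ratios of -0.53 and -0.65, and in late spermatocytes 35.3 and 35.9 against 29.7 CPM. Catsperg1 was lower in the knockout library in each germ cell class, the class of early spermatocytes included. Its copy Catsperg2 was also below both wildtype libraries in spermatogonia, in early spermatocytes (41.3, 41.5 and 32.7 CPM) and in round spermatids (6.85, 7.25 and 6.29 CPM, log2 ratios of -0.11 and -0.18), and between them in late spermatocytes and elongating spermatids. Without wildtype replicate 1, Catsperg1 passed the rule in round spermatids.

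Catsper4 stood at 33.4 and 31.7 CPM in wildtype elongating spermatids and 20.8 CPM in those of the knockout library, ratios of -0.66 and -0.59. In round spermatids Catsper4 was 274.3 and 278.9 against 243.8 CPM, a small difference beyond counting error. In spermatogonia the ratios were -0.45 and -1.24, from 33, 66 and 33 UMIs, and without wildtype replicate 1 Catsper4 passed the rule there; its spermatogonial level, 8.83 to 22.2 CPM, lies near the 17.6 to 21.4 CPM of myoid cells. Catsperd in round spermatids (50.2 and 39.8 against 58.7 CPM) and Catsperz in late spermatocytes (1821 and 1748 against 1939 CPM) were higher in the knockout library beyond counting error. The wildtype replicates themselves differed for Catsperd by a log2 ratio of 0.33, so this spread is of the order of the difference.

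**Figure D5:**
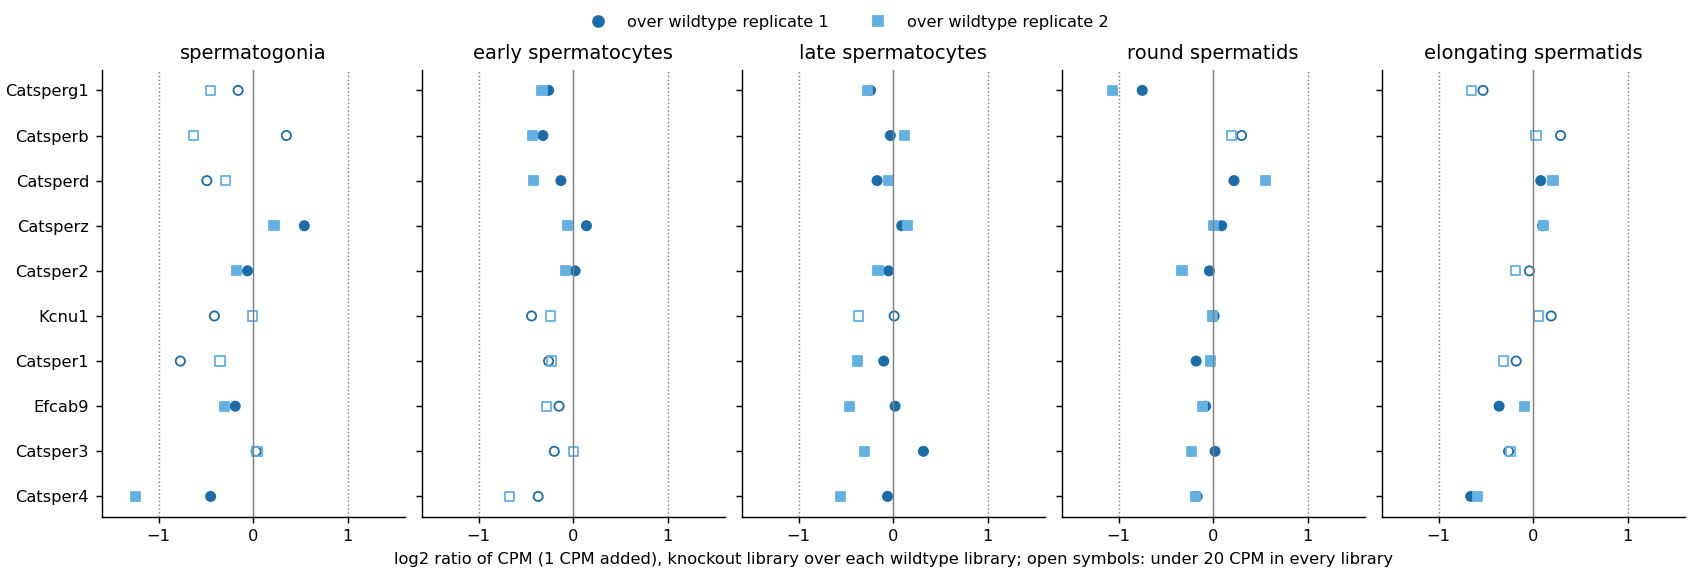
Log2 ratio of CPM (x axis, 1 CPM added) of the knockout library over wildtype replicate 1 (circles) and wildtype replicate 2 (squares) for each member in the 5 germ cell classes; open symbols mark members under 20 CPM in every library, and dotted lines mark 2-fold differences. No member lies past a dotted line with both symbols, and Catsperg1 in round spermatids (-0.75 and -1.06) comes nearest.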

How the data were processed

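The authors deposited a raw matrix of UMI counts for each library, and the file headers name Cell Ranger 4.0.0. The submitters' processing notes also name Seurat 4.0.5 and mm10; the annotation and use of strand are not given in the sources used here. Gene positions are from GENCODE M21 (GRCm38), and promoter windows from RefSeq (GRCm38.p6). The members and gene lists were chosen with earlier results of these data known.

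Barcodes with at least 1000 UMIs, 500 genes and at most 10% mitochondrial UMIs were kept. Scrublet's automatic threshold marked 0, 1 and 0 barcodes, so the top 8% of its scores were left out of each library. With 32 listed genes (members and related lists) held out, 2000 variable genes, 30 principal components and 15 neighbours gave Leiden clusters (scanpy 1.11.5, leidenalg 0.10.2), named from marker lists; leading genes were ranked by fold of CPM plus 20, a measure settled after seeing the data. Spermatogonia, early and late spermatocytes, round and elongating spermatids, Sertoli, Leydig and peritubular myoid cells were found; macrophages fell in a low-UMI cluster, endothelial markers matched an unnamed cluster, and no cluster was named interstitial mesenchyme or T and NK cells. The cluster named Sertoli also carried Tnp1 at 26090 to 28880 CPM, against 26960 to 28090 CPM in elongating spermatids, so no result uses it. The 3-fold limit for low-UMI clusters was set after seeing data.

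Pseudotime was the shortest path over a 15-neighbour graph of germ cells in 10 principal components, from a spermatogonium high for Gfra1, Zbtb16 and Uchl1. Diffusion pseudotime (30 neighbours, 14 components) had been tried first and placed early spermatocytes after elongating spermatids, so it was replaced after seeing the data, from the order of the classes and not from the members. Libraries were weighted equally in positions. Counts were summed per library and bin or class; 1 CPM was added before ratios, and a step needed 20 CPM in 1 of its 2 classes in every library. Poisson intervals (95%) cover counting error only. All members are named, related genes where they pass a fold rule, and the 2 genes most like each member. Alternatives included TMM (edgeR 4.0.16). Code was tested on simulated data. Levels are not compared between genes, since CPM from 3′ ends is not scaled by length.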

Additional observations from a re-analysis of the deposited data

Results flagged for a closer look

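Catsperz in the low-UMI barcodes of the knockout library, data outside the comparisons above, stood at 1430 CPM (95% Poisson interval 1413 to 1447), above the 1113 and 1242 CPM of the low-UMI barcodes of wildtype replicates 1 and 2. These barcodes were 63.6% of those kept in the knockout library, against 54.9% and 40.2%. Their largest cluster, led by the globin gene Hbb-bs, held 3020 barcodes of the knockout library and 1271 and 589 of the wildtype libraries. Catsperz stood there at 1713 CPM in the knockout library, against 1467 and 1499 CPM. In the cluster led by Cst9 it read 1068 CPM against 863.9 and 963.4 CPM. In that led by Pxt1 it read 2005 CPM, between the wildtype values of 2076 and 1893 CPM. The part of the mixture of clusters in the difference was not tested.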

How the results depend on the processing

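The 2 groups kept apart in all 25 pairs between them under 13 of the 14 alternatives tried; with the rise set at 75% of the highest bin 20 of 25 did, since Catsperd then rose at its later maximum in the knockout library only (27.2, 27.0 and 54.8). Pairs in the same order in all libraries numbered 37 to 45. The myoid level subtracted, 30 principal components and 30 neighbours were added after seeing the data; the first turned Catsper1 and Efcab9. The count of members rising to early spermatocytes went from 5 to 3 with a fold of 3, with UMIs per cell and with TMM, and to 0 with the members kept in for clustering and with no barcode left out as a doublet. The count rising to late spermatocytes went from 5 to 10 with UMIs per cell. There the median log2 ratio of all genes tested was 0.98 in place of -0.3, so that count is not read as a result about the members. The count rising to elongating spermatids went from 0 to 1 (Catsperd) with TMM, where that median was -0.25 in place of -1.52. In the 2 settings that gave 0 rising to early spermatocytes, the early spermatocyte class lost most of its last cluster. Under TMM and with UMIs per cell, Catsperb and Catsperg1 missed the minimum level. For the other changes the cause was not tested. For the knockout size rule the count went from 0 to 1 in round (Catsperg1) and in elongating spermatids (Catsper4) with a fold of 1.5, and in myoid cells (Catsperg1, on 1 UMI in the knockout library) with no minimum. Without 1 wildtype replicate it was 0 to 1 in spermatogonia (Catsper4) and 0 to 1 in round spermatids (Catsperg1). The other 97 values of these comparisons were within 1.5 times. Of 140 rise positions under alternatives, 87 moved by more than the spread of the libraries and 11 by over 1.5 times, all to earlier positions. With no barcode left out as a doublet, Catsper2 rose at 10.9, Catsperb at 9.42, Catsperd at 10.1, Catsperg1 at 9.23, Catsperz at 9.96 and Kcnu1 at 21.2. With low-UMI clusters kept in, Catsperb rose at 11.8, Catsperd at 13.9, Catsperg1 at 9.10 and Catsperz at 16.3, and with a rise at 25% Catsperg1 rose at 10.6. No paired analysis was possible because the knockout is 1 library pooled from 2 mice. Early levels of the later members lay mostly at or below those of myoid cells. The myoid levels are read as free RNA, which was not measured itself. Efcab9 in wildtype replicate 1 read 26.5 CPM in myoid cells. Between the bins at positions 27.5 and 32.5 it went from 5.98 to 12.2 CPM, with intervals of counting error apart. The myoid level is therefore no fixed floor for spermatocytes. Whether so small a change below it is an onset was not tested. In wildtype replicate 1 Kcnu1 read 0.0 CPM in myoid cells, against 5.65 CPM in spermatogonia and 3.93 CPM in early spermatocytes. Catsper4 in spermatogonia of wildtype replicate 2 read 22.2 CPM, against 21.4 CPM in myoid cells.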
